A study of Mus musculus with 6 samples.

Results

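The 10 genes described here are core members and outputs of the circadian clock, namely Arntl, Clock, Per1, Per2, Per3, Cry1, Cry2, Dbp, Nr1d1 and Nr1d2. They were chosen by name, with earlier results of these data known. Each was found once among the 43274 genes of the deposited table through its Ensembl identifier. Their RNA was measured in hair follicle bulge stem cells (bulge SCs) of mice at postnatal day 21, sorted by FACS as CD34+ cells with high α6 integrin, in 3 control and 3 ILK-K5 libraries. Integrin-linked kinase (ILK) is an adaptor protein that couples integrins to the actin cytoskeleton. ILK-K5 mice had both Ilk alleles floxed and expressed Cre from the keratin 5 promoter, which is active in the basal epidermis and the hair follicle. Control mice carried the same Cre and only 1 floxed Ilk allele, and the labels give their genotype as ILK +/- and that of the ILK-K5 mice as ILK -/-. The labels do not say how many mice went into a library, so that p-values measure the spread between these libraries, which may in part be technical. The hour at which the skin was taken is not given in the sources used here.

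The clock is a transcriptional feedback loop. Arntl (also called Bmal1) and Clock form a heterodimer that binds E-box sequences and drives the Per and Cry genes, whose proteins return to the nucleus and inhibit it. A second loop runs through Nr1d1 and Nr1d2 (Rev-erbα and Rev-erbβ), which the same heterodimer drives and which repress Arntl, while Dbp is an output factor that acts through D-box sequences. In tissues of mice kept in light and dark, RNA of Arntl therefore peaks at the opposite time of day to that of Dbp, Nr1d1 and the Per genes, whereas RNA of Clock changes little over the day. In the hair follicle, clock genes are known to influence how readily bulge SCs respond to activating signals.

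E-boxes and D-boxes are shown where the promoter window of one of these genes held one, because the results below turn on genes of the loop moving together or apart. Windows running from 250 bases before to 50 bases after each start site were taken from RefSeq (GRCm38.p6) for 9 of the 10 genes, all but Per2. These were 13 windows in all, with more than 1 start site for some genes. They were searched on both strands for the E-box CACGTG and the D-box TTATGTAA, and the stretches of 30 bases below, read 5′ to 3′ on the strand of the gene, have the match in capitals.
Per1, E-box starting 166 bases before the start site, chr11:69098771-69098800, plus strand: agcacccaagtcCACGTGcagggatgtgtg
Cry1, E-box starting 60 bases before the start site, chr10:85185097-85185126, minus strand: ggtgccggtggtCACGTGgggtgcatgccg
Per3, D-box starting 205 bases before the start site, chr4:151044852-151044881, minus strand: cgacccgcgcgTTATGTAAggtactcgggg
Per3, D-box starting 158 bases before the start site, chr4:151044805-151044834, minus strand: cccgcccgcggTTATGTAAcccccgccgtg
The E-box was thus found for Per1 and Cry1 and the D-box, at both places, for Per3. The Per1 window with the E-box, from 69098699 to 69098998, lies inside the span of the gene given below. Of all 32851 windows in the same table, 7.15% held this E-box and 0.938% this D-box. The letters AGGTCA, the core to which Nr1d1 and Rora bind, were found on either strand in the windows of Arntl, Clock, Per1 and Nr1d2 and in 16.3% of all windows, and are not printed because they are so frequent. The matches are descriptions of the letters in these windows and no measurement of binding.

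Reads counted on genes numbered between 8228019 and 11969072 per library, so that 1 read corresponded to between 0.726 and 1.52 normalized counts. Normalized counts are the reads of a gene after division by the size factor of its library. Ilk itself had 11, 11 and 53 reads in control and 13, 40 and 30 in ILK-K5 libraries. The deleted part of the gene is not resolved by counts per gene, so that this does not check the genotypes. The sort marker gene Itga6 had 1955 to 2993 normalized counts over all libraries. Krt15, a bulge keratin gene that was not used in the sort, had 10084 to 97406. A list of 9 bulge SC genes summed to 73565 to 182793 in control and 53411 to 94208 in ILK-K5 libraries. Most of this sum was Krt15 and Krt5. Cd34, the other sort marker gene, stood at 947 to 2009 in control and at 296 to 560 in ILK-K5 libraries. Of the 9 genes, Cd34 and Nfatc1 were lower in every ILK-K5 library and the others overlapped. Among the latter, Krt14 had 3306 to 8868 normalized counts in control and 8241 to 11365 in ILK-K5 libraries. A list of 10 macrophage genes summed to between 328 and 421 normalized counts in control and between 11074 and 14639 in ILK-K5 libraries, and all 10 genes were higher in every ILK-K5 library, with Fcgr1 at 0 in all controls. Summed levels of 4 fibroblast genes were 444 to 602 against 1263 to 1851, with Col1a1 and Col3a1 higher in every ILK-K5 library and Pdgfra and Dcn overlapping. The sums ranged from 103 to 125 against 127 to 197 for 3 T cell genes, from 69.9 to 146 against 71.7 to 204 for 4 melanocyte genes and from 35.0 to 112 against 64.0 to 86.5 for 3 endothelial genes. Of the T cell genes, only Cd3g was higher in every ILK-K5 library, and Cd3d and Cd3e overlapped. The column names of the deposited table carry one ending for replicate 1 of both genotypes and another for replicates 2 and 3, which the sources used here do not explain.

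All 10 clock genes were detected in every library, and all passed the filter of a mean of at least 10 normalized counts. Levels between genes were compared as FPKM, which takes gene length into account. By the median over the 6 libraries, Nr1d2 was the most abundant with 14.02 FPKM (range 9.28 to 22.3), followed by Clock with 8.79 (5.04 to 10.4), Nr1d1 with 6.61 (3.73 to 20.6), Cry2 with 4.99 (3.95 to 8.59) and Arntl with 4.34 (1.43 to 7.46). Per1 had a median of 3.12 FPKM (2.65 to 6.21), Cry1 of 2.37 (1.79 to 4.56), Per2 of 1.32 (1.09 to 3.77), Per3 of 0.852 (0.502 to 1.97) and Dbp of 0.681 (0.407 to 1.11). The range over the libraries of each gene overlapped that of the next in this order. Within single libraries, Nr1d2 lay above Clock, Cry1 above Per2, Per2 above Per3 and Per3 above Dbp in 6 of 6, whereas the other neighbours kept this order in 3 to 5 of the 6 libraries. The spread within a gene was widest for Nr1d1, whose highest library exceeded its lowest 5.54-fold, and for Arntl with 5.22-fold, and it was narrowest for Clock with 2.06-fold.

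The study asked how loss of ILK alters gene expression in bulge SCs. None of the 10 clock genes was called between the genotypes, where a call was an adjusted p-value not above 0.05 (limma, Benjamini-Hochberg adjustment over all genes tested). Over the 16368 genes tested, 3.53% were called (2.93% higher and 0.599% lower in ILK-K5). Neither DESeq2 nor edgeR's quasi-likelihood test on the recovered reads called a clock gene, where they called 6.43% and 3.11% of all genes. An unadjusted p-value under 0.05 was reached by 1 clock gene, Nr1d1, and by 12.3% of all genes. The control and ILK-K5 libraries overlapped for all 10 genes, whereas they did not overlap for 17.9% of all genes. Fitted log2 fold changes were below 0, that is lower in ILK-K5, for 8 of the 10 genes and for 49.5% of all genes, and the median over the 10 was -0.32 where that over all genes was 0.005.

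**Figure D1:**
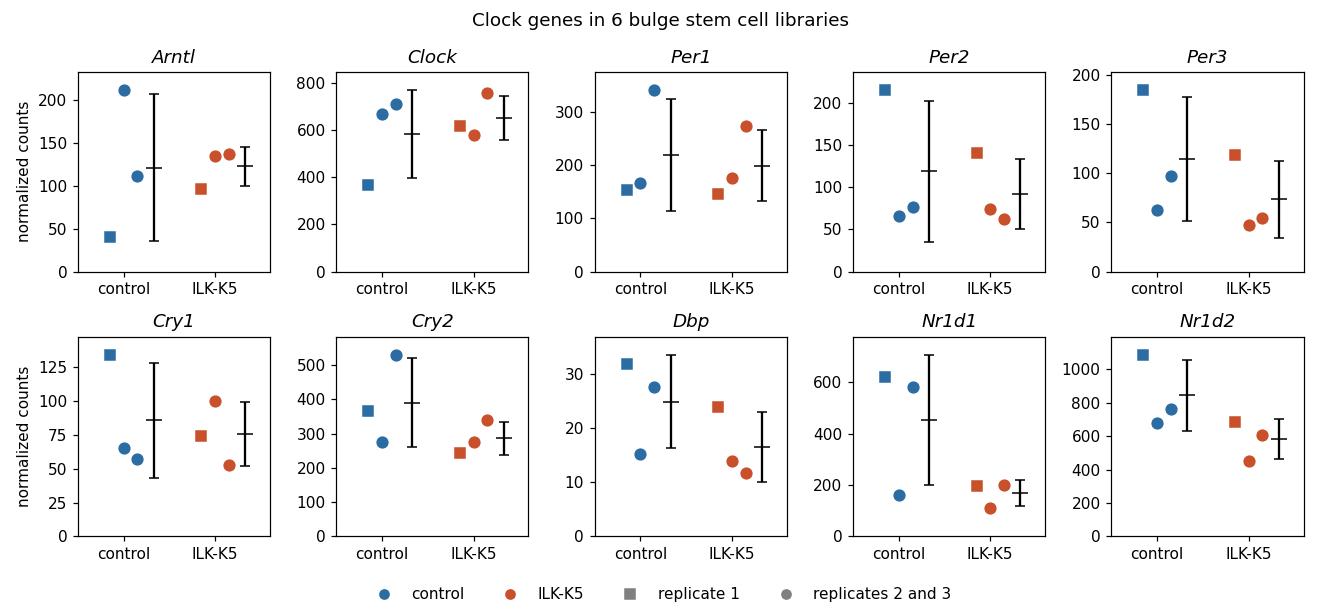
Normalized counts of the 10 clock genes (vertical axis, linear from 0) in control (blue) and ILK-K5 (orange) libraries, 1 point per library; squares are replicate 1, circles replicates 2 and 3, and black bars are mean ± SD of 3 libraries. The genotypes overlap in every panel, and both squares lie above all circles for Per2 and Per3 and below them for Arntl and Per1.

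Among the activators, Arntl (ENSMUSG00000055116, chromosome 7 from 113207465 to 113314126) had 40.5, 211 and 112 normalized counts in the controls (libraries 1, 2 and 3) and, in the same order, 95.6, 134 and 137 in the ILK-K5 libraries. Control libraries 1 and 2 held the lowest and the highest value of all 6, so that the ILK-K5 values lay inside the range of the controls. Its log2 fold change was 0.29 (95% interval -0.97 to 1.55, adjusted p = 0.926 from limma), and it was -0.35 without control library 1. Clock (ENSMUSG00000029238, chromosome 5 from 76209868 to 76304792), the partner of Arntl, had 368, 666 and 711 normalized counts in control and 616, 579 and 757 in ILK-K5 libraries. Only control library 1 stood apart, below the other 5 libraries. For Clock the log2 fold change was 0.21 (95% interval -0.50 to 0.92, adjusted p = 0.899), and it was -0.09 without that library.

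Of the repressors, Per1 (ENSMUSG00000020893, chromosome 11 from 69095217 to 69109960), which is also induced by glucocorticoids and by acute stimuli, had 152, 166 and 341 normalized counts in control and 146, 177 and 274 in ILK-K5 libraries. Replicate 3 was the highest and replicate 1 the lowest in both genotypes. The genotypes differed by a log2 fold change of -0.10 (95% interval -1.005 to 0.81, adjusted p = 0.967 from limma), and it turned to 0.27 when control library 3 was left out and to 0.10 when ILK-K5 library 1 was. A list of 5 genes that respond to glucocorticoids summed to between 1890 and 3075 normalized counts in control and between 3842 and 6531 in ILK-K5 libraries. Of the 5, Sgk1 alone was higher in every ILK-K5 library, at 1070 to 1634 against 2479 to 4603, and the other genes of the list overlapped. The part of these genes in the value of Per1 was not tested. Per2 (ENSMUSG00000055866, chromosome 1 from 91415982 to 91459324) had 215, 65.4 and 76.2 normalized counts in control and 140, 74.0 and 62.3 in ILK-K5 libraries. Replicate 1 was high in both genotypes and the other 4 libraries lay close together. The log2 fold change between the genotypes was -0.24 (95% interval -1.44 to 0.96, adjusted p = 0.935), and 0.29 without control library 1.

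Per3 (ENSMUSG00000028957, chromosome 4 from 151003652 to 151044665), whose promoter window holds both D-boxes printed above, had 184, 62.3 and 97.2 normalized counts in control and 118, 47.0 and 54.5 in ILK-K5 libraries. As for Per2, replicate 1 was the highest in each genotype. Within each replicate number the ILK-K5 library lay below the control, though the numbers were not taken to pair the libraries. For Per3 the log2 fold change was -0.62 (95% interval -1.79 to 0.55, adjusted p = 0.779 from limma). It moved to -0.21 when control library 1 was left out and to -1.02 when ILK-K5 library 1 was. Cry1 (ENSMUSG00000020038, chromosome 10 from 85131700 to 85185064), whose window holds an E-box as does that of Per1, had 134, 65.4 and 57.3 normalized counts in control and 74.0, 100 and 52.6 in ILK-K5 libraries. Its log2 fold change was -0.12 (95% interval -1.15 to 0.91, adjusted p = 0.966), and the sign turned without control library 1 (0.25) or ILK-K5 library 3 (0.11). Cry2 (ENSMUSG00000068742, chromosome 2 from 92403646 to 92434043) had 367, 275 and 530 normalized counts in control and 244, 276 and 339 in ILK-K5 libraries, with a log2 fold change of -0.41 (95% interval -1.13 to 0.31, adjusted p = 0.759) that was -0.16 without control library 3 and -0.63 without control library 2. Control library 3 was the highest for Cry2, as it was for Per1.

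Of the output and loop genes, Nr1d1 (ENSMUSG00000020889, chromosome 11 from 98767932 to 98775333), the repressor of Arntl, showed the largest fitted difference of the 10. It had 619, 161 and 580 normalized counts in control and 197, 112 and 200 in ILK-K5 libraries. Control libraries 1 and 3 lay far above all others, whereas control library 2 fell within the ILK-K5 range. The ILK-K5 library was the lower one within each of the 3 replicate numbers, which were not taken to pair the libraries. The log2 fold change was -1.24 (standard error 0.52, 95% interval -2.41 to -0.06, adjusted p = 0.363 from limma). It ranged from -1.87 without control library 2 (adjusted p = 0.0548 from limma) to -0.90 without control library 1 (adjusted p = 0.628). In replicates 2 and 3 alone the log2 fold change was -1.03 (adjusted p = 0.605), and in DESeq2 it was -1.45 (adjusted p = 0.0860). Of the exon bases of Nr1d1, 8.55% lie also in exons of Thra on the opposite strand. The counting is not stated to use strand, and reads from this stretch cannot be assigned to either gene. Thra itself had 154, 351 and 533 normalized counts in control and 171, 261 and 372 in ILK-K5 libraries. The part of Thra in the counts of Nr1d1 was not tested.

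Nr1d2 (ENSMUSG00000021775, chromosome 14 from 18204054 to 18239127), the paralog of Nr1d1, had 1086, 681 and 764 normalized counts in control and 687, 453 and 605 in ILK-K5 libraries. The genotypes overlapped only through control library 2 and ILK-K5 library 1, and the log2 fold change was -0.53 (95% interval -1.18 to 0.13, adjusted p = 0.570 from limma). Dbp (ENSMUSG00000059824, chromosome 7 from 45705088 to 45710203) was the least counted gene of the 10, with 33, 10 and 38 reads in control and 21, 18 and 12 in ILK-K5 libraries, or 31.8, 15.2 and 27.6 against 23.9, 13.9 and 11.7 normalized counts. The log2 fold change was -0.56 (95% interval -1.90 to 0.77, adjusted p = 0.836) at this low depth. Dbp shares 18.01% of its exon bases with Sphk2 on the opposite strand, which had 130, 111 and 294 normalized counts in control and 59.2, 256 and 253 in ILK-K5 libraries, all above those of Dbp. Reads from the shared stretch cannot be assigned to either gene. The other overlaps were with D930015M05Rik, which covers 4.67% of Cry2, and with Gm45355, which covers 0.439% of Arntl. As these are bulk samples, fewer cells of a type and less RNA per cell cannot be told apart for any of these genes.

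Because RNA of Arntl and of the genes that its protein drives peaks at opposite times of day, the ratio of the latter to Arntl was computed within each library, where it does not rest on the scaling between libraries. The log2 ratio of Per2 to Arntl was 2.38, -1.68 and -0.55 in the controls and 0.55, -0.85 and -1.13 in the ILK-K5 libraries, each in the order of the replicate numbers. That of Nr1d1 to Arntl was 3.90, -0.39 and 2.37 in control and 1.03, -0.26 and 0.54 in ILK-K5 libraries, and that of Dbp to Arntl was -0.34, -3.71 and -1.98 against -1.96, -3.18 and -3.45. For all 6 ratios computed, those of Per1, Per2, Per3, Dbp, Nr1d1 and Nr1d2, control library 1 had the highest and control library 2 the lowest value. The ratios share Arntl, which was lowest in the first and highest in the second of these libraries, so that they are not 6 separate observations. In 4 of the 6, both replicate 1 libraries lay above the other 4 libraries. The shared Arntl was itself lower in both replicate 1 libraries than in the other 4. Among single genes, replicate 1 did not overlap replicates 2 and 3 for 33.8% of all genes.

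The controls thus held both ends of the range, and the ILK-K5 libraries lay between them. The mean log2 ratio of Nr1d1 to Arntl was 1.96 ± 2.17 (SD, n = 3) for the controls against 0.44 ± 0.65 (SD, n = 3) for ILK-K5, a difference of -1.52 that is smaller than the spread of the controls. For Per3 the means were 0.071 ± 1.97 and -0.83 ± 0.99, for Dbp -2.01 ± 1.69 and -2.86 ± 0.80, and for Nr1d2 3.05 ± 1.53 and 2.24 ± 0.55. For Per2 they were 0.052 ± 2.09 and -0.48 ± 0.90, and for Per1 1.05 ± 1.22 and 0.66 ± 0.30. With all libraries, the difference between the genotypes was below 1 SD of the controls in each case. These differences shifted upward without control library 1 and became more negative without control library 2. Without library 1 the difference was -0.55 for Nr1d1, 0.64 for Per2 and 0.14 for Per3, and it lay between -0.016 and 0.036 for Dbp, Per1 and Nr1d2. Without library 2 it was -2.70 for Nr1d1, where the controls left were at 3.90 and 2.37, and it ranged from -1.81 for Per3 to -1.08 for Per1 among the other ratios.

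**Figure D2:**
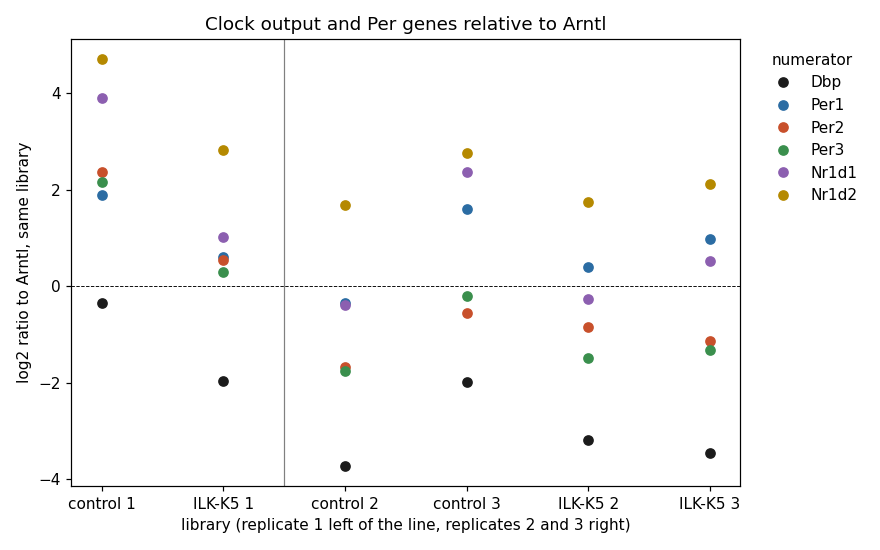
Log2 ratio of Dbp, Per1, Per2, Per3, Nr1d1 and Nr1d2 to Arntl (vertical axis, log2 scale) in each of the 6 libraries (horizontal axis), with replicate 1 of both genotypes left of the line. All 6 ratios are highest in control 1 and lowest in control 2.

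Seen by library, control library 1 was the highest of the 6 for Per2, Per3, Cry1, Dbp, Nr1d1 and Nr1d2 and the lowest for Arntl and Clock. It held an extreme value in 8 of the 10 genes, where it did so for 48.6% of all genes tested. The other libraries held between 1 and 4 extremes each. The most of these was 4, in ILK-K5 library 3, which held an extreme for 16.2% of all genes tested. For the remaining libraries this share of all genes lay between 30.1% and 36.3%. Over the 6 libraries, the pattern most like that of Arntl among 11068 other genes (mean of at least 50 normalized counts, or members) was that of Emc4, followed by Ddx51 and Ilf2, each with a Pearson r of log2 values of 0.99. Clock ranked 544 from the top with an r of 0.84. Per2 with an r of -0.91 ranked 10952 and Per3 with -0.85 ranked 10768, near the opposite end. Dbp, Nr1d2, Cry1 and Nr1d1 had an r between -0.76 and -0.70. Cry2 with -0.26 ranked 7453 and Per1 with 0.25 ranked 4503, nearer the middle. For Dbp the most similar genes were Unc13b, Bcl7a and 5430416N02Rik, each with an r of 0.98, and Per3 ranked 13 with an r of 0.93. Nr1d1 ranked 188 (r = 0.82), Nr1d2 ranked 246 (r = 0.80) and Per2 ranked 325 (r = 0.78). Cry2 ranked 2194 (r = 0.43), Cry1 ranked 2259 (r = 0.42) and Per1 ranked 5603 (r = -0.12). Clock had an r of -0.58 and Arntl of -0.76 with Dbp. These values rest on the same 6 libraries, in which replicate 1 and genotype both contribute, and are descriptions only.

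Replicate 1 of both genotypes was next compared with replicates 2 and 3, with genotype kept in the fit. This comparison follows the ending of the column names and was chosen after the values had been seen. Of the 10 clock genes, 1 was called, Per2, which was higher in replicate 1 by a log2 difference of 1.31 (standard error 0.32, 95% interval 0.60 to 2.03, adjusted p = 0.0363 from limma). Over all genes 8.83% were called, so that the share among the clock genes was near the background. An unadjusted p-value under 0.05 was reached by 3 clock genes and by 29.2% of all genes. The 3 were Per2, Per3 with 1.22 (95% interval 0.46 to 1.98, adjusted p = 0.0532) and Arntl with -1.20 (95% interval -2.11 to -0.29, adjusted p = 0.0891). The libraries of the 2 endings did not overlap for 4 of the 10 genes, the above and Per1, and for 33.8% of all genes.

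Among the remaining genes Dbp had a log2 difference of 0.73 (95% interval -0.46 to 1.93), Nr1d1 of 0.71 (-0.35 to 1.76), Cry1 of 0.57 (-0.34 to 1.49) and Nr1d2 of 0.49 (-0.03 to 1.01), while Per1 had -0.61 (-1.39 to 0.16), Clock -0.50 (-1.09 to 0.08) and Cry2 -0.19 (-0.87 to 0.48). The call of Per2 was lost when control library 1 was left out (log2 difference 1.03, adjusted p = 0.401), and also when any of the 3 ILK-K5 libraries was (between 1.30 and 1.59, adjusted p between 0.104 and 0.131). Without control library 1, no gene of the 16368 was called, with 2164 at an unadjusted p-value under 0.05. Without control library 2 the number called was 3892, where it was 1446 with all libraries, and it was 3, 36 and 420 without ILK-K5 library 1, 2 and 3. A list of 7 immediate early genes, which respond within minutes to handling and dissociation of tissue, summed to 40078 and 30251 normalized counts in replicate 1 of control and ILK-K5 and to between 6135 and 22637 in the other libraries. Of the list, Fosb overlapped, with 1496 normalized counts in ILK-K5 library 1 and 1739 in ILK-K5 library 3. The other genes were higher in both replicate 1 libraries, Egr1 narrowly, at 7578 in ILK-K5 library 1 and 7500 in ILK-K5 library 2. The part of this list in the differences between the endings was not tested.

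**Figure D3:**
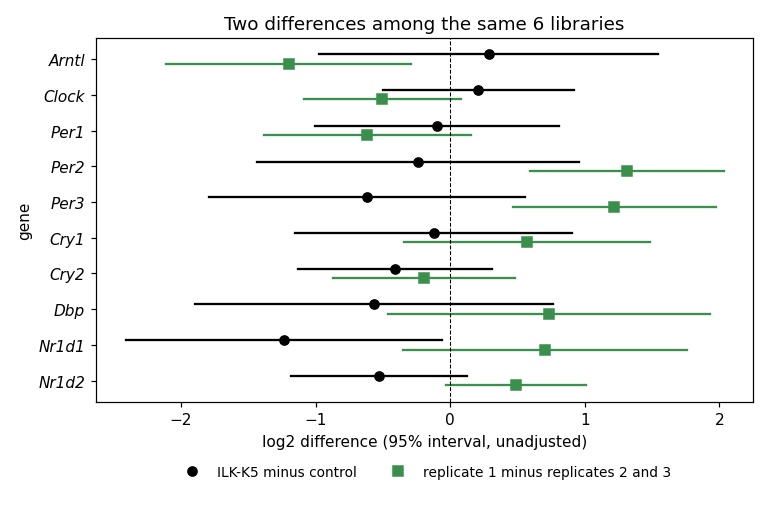
Log2 difference (horizontal axis) of each clock gene between ILK-K5 and control (black circles) and between replicate 1 and replicates 2 and 3 (green squares), with unadjusted 95% intervals from limma. Only the interval of Nr1d1 leaves out 0 for the genotype, and those of Arntl, Per2 and Per3 do so for the replicates.

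A list of 18 further genes of the clock was examined in the same fit. It includes paralogs of the activators (Npas2, Arntl2), the nuclear receptors Rora and Rorb, which activate Arntl at the elements that Nr1d1 represses, the factors Tef, Hlf and Nfil3, the repressors Bhlhe40, Bhlhe41 and Ciart, and Csnk1d, Csnk1e, Fbxl21, Timeless, Usp2 and Wee1. All 18 passed the filter, and none was called between the genotypes with limma or edgeR. An unadjusted p-value under 0.05 from limma was reached by 4 of the 18 and by 12.3% of all genes. The median log2 fold change of the 18 was -0.15, where that over all genes was 0.005. Of the 18, 11 were fitted below 0, as were 49.5% of all genes. The genotypes did not overlap for 8 of the 18, against 17.9% of all genes. Among these, Npas2, Rora, Hlf and Usp2 were lower and Bhlhe40, Csnk1d and Csnk1e were higher in ILK-K5 in every library. The list was chosen with earlier results of these data known, so that its shares are not independent of the values.

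Npas2, which can take the place of Clock in the heterodimer, had 68.5, 113 and 89.2 normalized counts in control and 9.11, 30.9 and 27.3 in ILK-K5 libraries. Every ILK-K5 value lay below every control value, and the log2 fold change came to -2.10 (standard error 0.55, 95% interval -3.34 to -0.85, adjusted p = 0.0851 from limma). Rora had 1235, 1799 and 2216 normalized counts in control and 849, 729 and 993 in ILK-K5 libraries, a log2 fold change of -1.0 (standard error 0.29, 95% interval -1.65 to -0.34, adjusted p = 0.125). It was called without control library 1 (-1.23, adjusted p = 0.0491). Usp2, a deubiquitinase and known output gene, had 134, 82.1 and 131 against 51.2, 77.1 and 53.6 normalized counts, with a log2 fold change of -0.91 (adjusted p = 0.364).

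Bhlhe40 (Dec1), a repressor that competes for E-boxes and is also abundant in activated leukocytes, had 17.4, 85.2 and 306 normalized counts in control and 619, 666 and 562 in ILK-K5 libraries. The controls spread widely while the ILK-K5 values lay close together, and the log2 fold change was 2.97 (standard error 0.82, 95% interval 1.12 to 4.82, adjusted p = 0.102 from limma). It was 3.95 without control library 3 (adjusted p = 0.00770) and 1.92 without control library 1 (adjusted p = 0.0816). The summed macrophage genes given above were also higher in every ILK-K5 library, whereas Npas2 and Rora were lower. In control libraries 1, 2 and 3 the macrophage sum was 421, 339 and 328, where Bhlhe40 rose in that order. The part of the macrophage genes in the values of Bhlhe40, Npas2 and Rora was not tested. Ciart had 23.2, 0 and 5.08 against 5.69, 20.1 and 11.7 normalized counts, with a log2 fold change of 1.20 (95% interval -1.45 to 3.85) that was 0.0022 without control library 2, in which it was at 0, and 2.30 without control library 1. It was 2.28 with a pseudocount of 0.1 and 0.35 in DESeq2. Csnk1e, a kinase of the Per proteins, had 231, 179 and 149 against 351, 265 and 254, with a log2 fold change of 0.64 (95% interval -0.04 to 1.33, adjusted p = 0.456). On the recovered reads, DESeq2 called Npas2 (log2 fold change -2.01, adjusted p = 0.00735), Rora (-1.05, adjusted p = 0.0293) and Bhlhe40 (2.16, adjusted p = 0.0484), where it called 6.43% of all genes. A limma fit with a term for the column-name ending called the same 3 genes, with adjusted p-values of 0.0116, 0.0363 and 0.0195, where it called 6.92% of all genes and none of the 10 core and output genes (lowest adjusted p = 0.156, for Nr1d1).

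**Figure D4:**
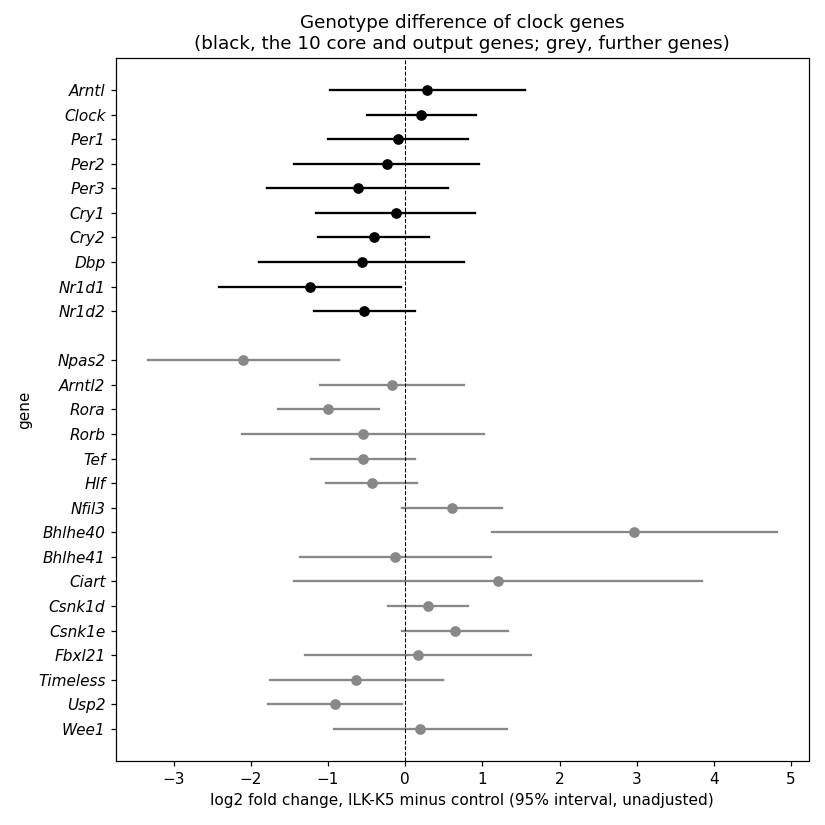
Fitted log2 fold change between ILK-K5 and control (horizontal axis) of the 10 core and output genes (black) and of further clock genes (grey), with unadjusted 95% intervals from limma. The intervals of Nr1d1, Npas2, Rora, Usp2 and Bhlhe40 leave out 0, and none of the genes drawn was called after adjustment over all genes.

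Between the column-name endings, 1 of the 18 further genes was called, where 8.83% of all genes were, which is no more than the background. This was Bhlhe41 (Dec2), the paralog of Bhlhe40, which had 628, 199 and 168 normalized counts in control and 416, 149 and 260 in ILK-K5 libraries and is named because of this value. It was higher in replicate 1, as was Per2, with a log2 difference of 1.43 (standard error 0.31, 95% interval 0.73 to 2.12, adjusted p = 0.0263 from limma). The call was lost without control library 1 (1.07, adjusted p = 0.371), ILK-K5 library 1 (1.78, adjusted p = 0.112) or ILK-K5 library 2 (1.30, adjusted p = 0.104). Gm43909 on the opposite strand covers 19.0% of its exon bases. Between the genotypes Bhlhe41 had a log2 fold change of -0.13 (95% interval -1.36 to 1.11, adjusted p = 0.968).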

How the data were processed

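RNA of 3 control and 3 ILK-K5 libraries of sorted bulge SCs was amplified as cDNA (Ovation RNA-Seq System V2) and sequenced as read pairs from Nextera XT libraries. Per the submitters' processing notes and the study's methods, reads on ribosomal RNA were removed, the rest were aligned to GRCm38 with TopHat2 2.0.14 and Bowtie2 2.2.4, and counts were analysed in DESeq2 1.6.3. The program that counted reads per gene is not given in the sources used here. The signal in the deposited normalized table was made by the authors by dividing the reads of each gene by the size factor of its library: 100% of the values were whole multiples, within 0.01 reads, of the value of 1 read, so that the reads were recovered. FPKM values, as deposited by the authors, are these values scaled by gene. The deposited tables of the authors' own comparison, with fold changes and p-values, were not used.

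Genotypes were compared in R 4.3.3 with limma 3.58.1 (with trend), after adding 1 to the normalized counts and taking log2, over 16368 genes whose mean was 10 or more, with Benjamini-Hochberg adjustment over all of them and a threshold of 0.05. Tests are two-sided. With 3 libraries per genotype an exact permutation test on 1 gene cannot go below 0.1. On the recovered reads, DESeq2 1.42.0 called 1052 genes and edgeR 4.0.16 called 509. Further settings were pseudocounts of 0.1 and 5, all detected genes or those with a mean of 50 or more, quantile and TMM scaling, the FPKM table, a block for the replicate number, a term for the column-name ending, replicates 2 and 3 only, and each library left out. The script was tested on simulated data.

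Symbols and coordinates are from GENCODE M21 (GRCm38), and 42107 of 43274 identifiers had a symbol. The members and lists were chosen with earlier results of these data known. The genes named are the 10 members, the further clock genes that were called or had the 3 highest or 3 lowest fold changes, genes whose exons overlap a member, and the 3 genes most like Arntl or Dbp; Bhlhe41, Hlf and Csnk1d were named after their values were seen. Some genes of the further list are counted but not reported here by name.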

Additional observations from a re-analysis of the deposited data

How the results depend on the processing

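Under the alternatives run, the count of core and output genes called between the genotypes moved only with the replicate block, where 1 was called lower, Nr1d1 (log2 fold change -1.24, adjusted p = 0.0309). The replicate number is shared by the titles but no source says that it marks a litter or day. The correlation of deviations between same-numbered libraries was 0.53, 0.020 and 0.31, so that the numbers were not taken to pair the samples, and not every library correlated best with its own number. Of the further clock genes, 1 was called higher and 2 lower under DESeq2, with the replicate block and with the term for the column-name ending, and 0 to 1 higher and 0 to 1 lower when single libraries were left out. Over all genes, 479 higher and 98 lower calls became 772 and 280 under DESeq2, 848 and 269 with the replicate block and 846 and 286 with the ending term, and between 222 and 559 and between 32 and 98 when single libraries were left out, with the lowest counts without ILK-K5 library 2. The 1 call between the endings became 2, Per2 and Per3, under DESeq2 and quantile normalization and lay between 0 and 2 without single libraries.

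In replicates 2 and 3 alone the sign turned for Arntl (-0.18), Clock (-0.056) and Cry1 (0.24). Without single libraries the log2 fold change ranged from -0.35 to 0.83 for Arntl, -0.090 to 0.38 for Clock, -0.35 to 0.27 for Per1, -0.59 to 0.29 for Per2 and -0.35 to 0.25 for Cry1. The other 5 core and output genes kept a log2 fold change below 0 under every alternative run, and without single libraries it ranged from -1.87 to -0.90 for Nr1d1, -0.67 to -0.33 for Nr1d2, -0.87 to -0.36 for Dbp, -1.02 to -0.21 for Per3 and -0.63 to -0.16 for Cry2. The cause of these shifts was not tested. The number of reads on Dbp, 10 to 38 per library, limits its precision.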
